A study of Mus musculus with 4 samples.

Results

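The 10 genes described here carry out the uptake, storage and export of iron in liver and set the level of hepcidin, the hormone that controls iron release into blood. They are the ferritin receptor gene Scara5, the hepcidin gene Hamp, its regulators Hfe, Tfr2 and Hfe2, the transferrin receptor gene Tfrc, the transferrin gene Trf, the ferritin subunit genes Fth1 and Ftl1, and the exporter gene Slc40a1. Members were all probes whose symbol in the platform annotation was 1 of these 10, with Hfe2 found under its current symbol Hjv. All 10 genes were present, through 15 of the 25697 probes on the array. The group was selected on the measured difference of Scara5, which had the lowest value of knockout minus control of all 9311 rows tested. The other members were listed for their role, with earlier results of these data known. The members' differences are therefore a description, and no test is drawn from them.

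Expression was measured on Illumina bead arrays in whole liver of non-fasted mice that were 2 months old. The knockout group, labelled Shp2hep-/-, held 2 liver samples of albumin-Cre-positive mice, in which Cre, driven by a promoter active in hepatocytes, removes the floxed part of the gene for the phosphatase Shp2. The control group, labelled wild type, held 2 liver samples of mice with the floxed Shp2 alleles (Shp2Floxed/Floxed), and the labels do not state whether it lacked Cre. Nothing in the labels says whether a sample was 1 mouse or a pool, so errors and p-values cover only the spread between samples, which may be technical. Titles place the knockouts side by side on the same chip as the controls, and chip position and group cannot be told apart.

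Hepatocytes take up transferrin-bound iron through the transferrin receptor, can take up ferritin, and store iron inside ferritin shells built of heavy and light subunits. Ferroportin, the product of Slc40a1, is the exporter of cellular iron, and hepcidin binds it and causes its breakdown. Hepatocytes make hepcidin when bone morphogenetic protein (BMP) signalling is active, with hemojuvelin, HFE and transferrin receptor 2 as upstream sensors, and when interleukin-6 signals through STAT3.

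Arrays had 12328 and 11809 detected probes in the knockouts, against 11990 and 11542 in the controls, where a probe counts as detected if its detection p-value is under 0.05. Values below are background-corrected, quantile-normalized log2 intensities unless called deposited intensities, and differences are knockout minus control. Ptpn11, the gene for Shp2, measured 11.38 and 11.56 in the knockouts and 12.75 and 12.85 in the controls, a difference of −1.33 (SE 0.18, n = 2 per group, limma adjusted p = 0.0599). These values are of its brightest probe. Others, detected on all 4 arrays, differed by −1.13 and −1.26, and a further probe, at 0.28, was not detected on any array. Where the probes lie relative to the deleted part is not given in the sources used here. Of 10 hepatocyte markers 9 were tested, with summed normalized intensities of 253200 and 284400 in the knockouts and 285500 and 261700 in the controls. The probe of albumin was close to background, at 5.75 and 6.05 in the knockouts and 5.90 and 5.58 in the controls, and the probe of Tat was not detected on any array.

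Of the 10 genes, 8 had a probe that passed the filter of detection on at least 2 arrays, and Ftl1 and Hfe2 did not. Scara5 passed only through the control arrays and 1 knockout array. Knockout and control values did not overlap for 6 of the 8 measured genes, 3 higher and 3 lower in knockout. Over all rows tested 48.6% did not overlap, 24.8% higher and 23.8% lower. The fit passed 1 of the 8 at an adjusted p under 0.05, Scara5, where it passed 0.795% of all rows, 0.451% as higher and 0.344% as lower. Since this contrast chose the members, nothing is read from that count. The median difference was 0.02 over the 8 genes and 0.01 over all rows. In bulk liver, fewer cells of a type and less RNA per cell cannot be told apart.

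**Figure D1:**
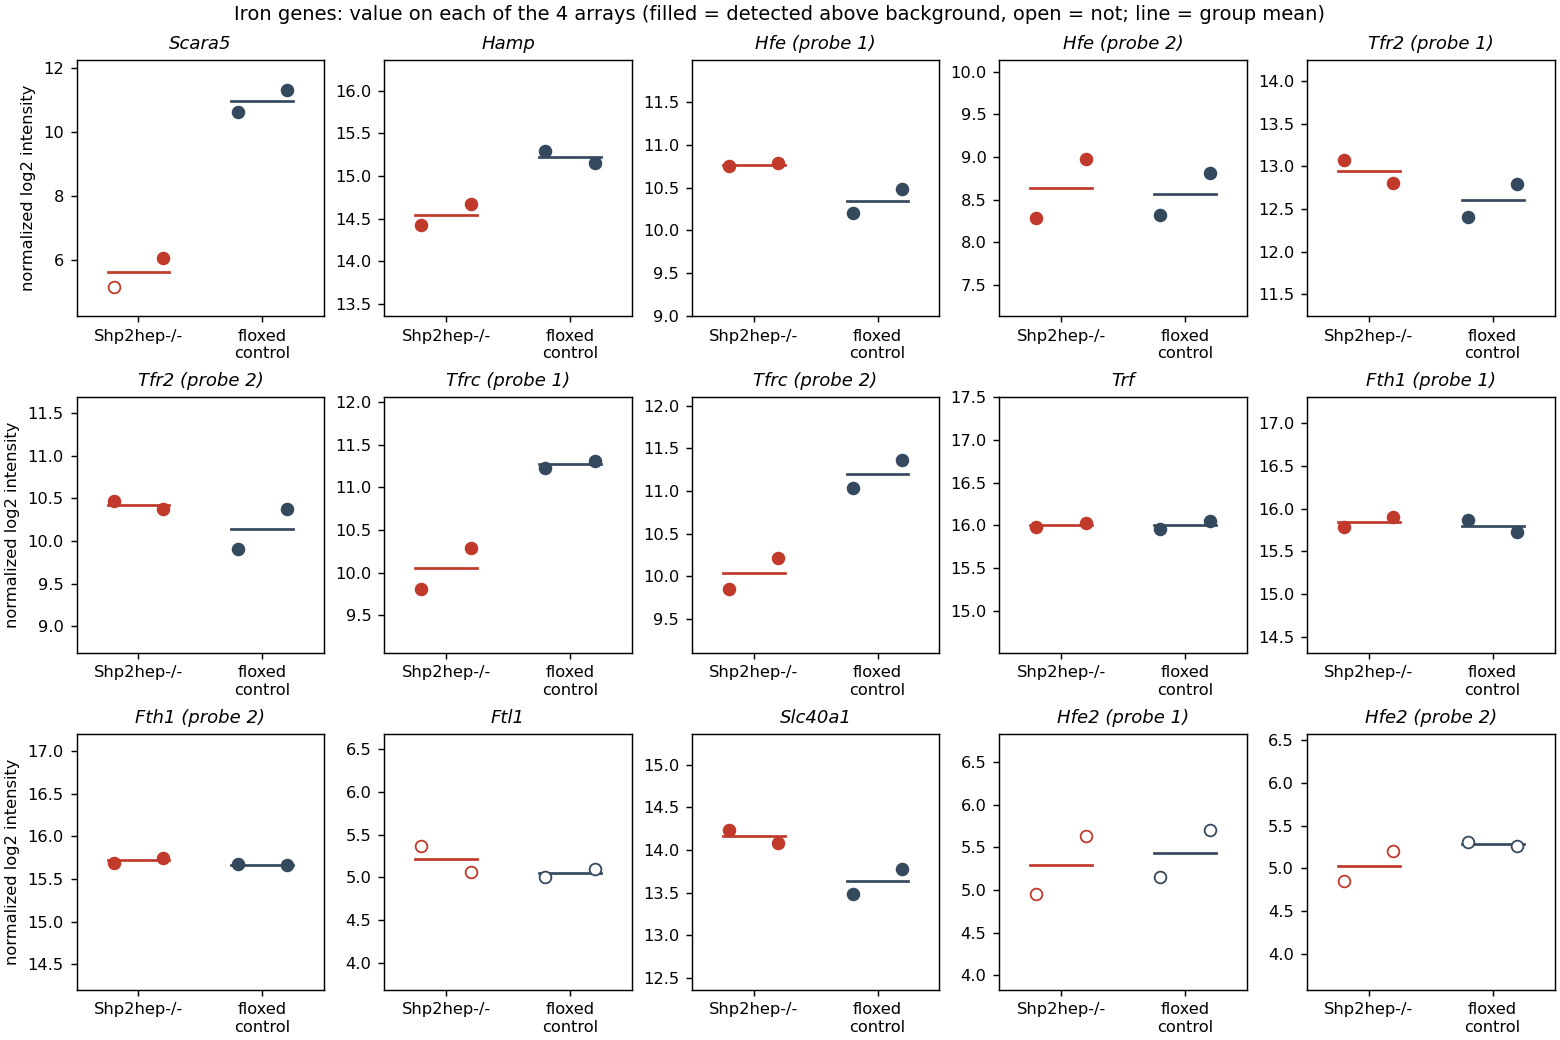
Normalized log2 intensity of each probe of the 10 iron genes on the 2 knockout arrays (red, left) and the 2 control arrays (blue, right), each panel with its own vertical axis. Filled points were detected above background, open points were not, and lines are group means; Scara5, Hamp and both Tfrc probes lay lower in both knockouts, and Slc40a1 lay higher.

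Among the uptake genes, Scara5, which encodes a scavenger receptor that binds ferritin in mouse, lies on chromosome 14 (GRCm38.p6, 65666403 to 65764826) and had 1 probe. Its deposited intensity was 217.0 and 276 units in the knockouts, against 1763 and 2667 units in the controls. On the knockout arrays the median of all probes was 242.2 and 256.6 units, so that Scara5 lay below the median on 1 of them and just above it on the other. On the log2 scale it measured 5.16 and 6.04 in the knockouts and 10.61 and 11.32 in the controls. Both knockout values were below both control values. The gap was 0.88 between the knockouts, of which 1 was not detected, and 0.71 between the controls. Because the fall of this gene chose the group, the gap between groups is not weighed against these.

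The mean of Scara5 was 5.60 ± 0.62 in the knockouts and 10.96 ± 0.50 in the controls (SD, n = 2 each), a difference of −5.37 (SE 0.39), or 41.3-fold lower. Detection p was 0.373 on the first knockout array and 0.0239 on the second, so that 1 of the 2 knockout arrays was above background. With the undetected array raised to the lowest signal among its detected probes, the difference was −5.08, 33.8-fold lower. The size therefore rests on how background is treated: with no background correction it was −3.15, and with a normexp correction with an offset of 50 it was −3.98. Next in the fitted order came Camk2b, a calcium-dependent kinase gene that was below background on both knockout arrays and thus at least 16.2-fold lower, and Hsd3b5, a steroid reductase gene of male liver, at −4.19. The order of genes at background depends on how background is treated.

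**Figure D2:**
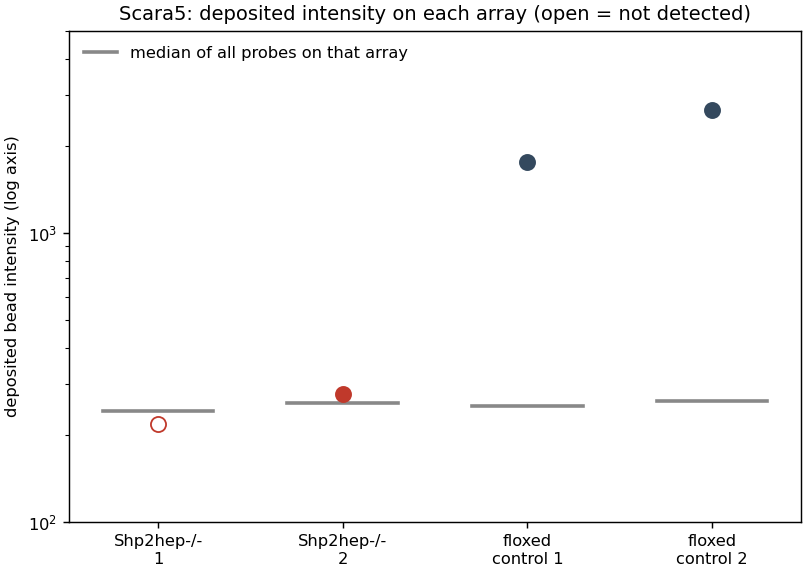
Deposited bead intensity of Scara5 on each array, on a log axis, with grey bars for the median of all probes on that array. The knockout points, at 217.0 (open, not detected) and 276 units, lie near the grey bars, and the control points are at 1763 and 2667 units.

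The genes most like Scara5 over the 4 arrays were found by the root mean square difference between values centred on each gene's mean. They were Hsd3b5 (0.62), Camk2b (0.77) and Epm2aip1 (0.98), and Camk2b and Epm2aip1 were below background on both knockout arrays. This measure uses the Scara5 values that chose the group and keeps the size of the fall, so it favours other large falls. Nothing is read from this order. Among other class A scavenger receptors, 2 of 4 were tested and 0 passed limma's test, with 0 at an unadjusted p under 0.05 (16.5% of all rows). Scara3 measured 8.57 and 6.06 in the knockouts and 8.47 and 7.27 in the controls. Marco, a macrophage receptor, measured 6.01 and 6.07 in the knockouts and 6.95 and 5.48 in the controls. Both overlapped between groups and took either sign as single arrays were left out, and Msr1 and Colec12 were not detected on any array.

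Fibroblasts and stellate cells are non-hepatocyte cells of the liver, and 7 of the 8 tested markers of these cells were above 0, where 50.6% of all rows were, with a median difference of 0.31. Their summed normalized intensity was 19270 and 19570 in the knockouts, against 16540 and 11350 in the controls. Of their defining markers Lrat was not detected on any array, and Col1a1, Pdgfrb and Hgf were each detected on 1 array. Endothelial markers summed to 10770 and 13300 in the knockouts and 13750 and 8521 in the controls, and the groups overlapped. The marker sums in this report add linear values, so the brightest probes weigh most. Examples are Clec4g for endothelial cells, Dcn for stellate cells and Hba-a1 for red blood cells. The part of these cells in the Scara5 difference was not tested.

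Tfrc, which encodes transferrin receptor 1 and whose messenger RNA is stabilised by iron-regulatory proteins when cells are short of iron, lies on chromosome 16 (32608896 to 32632794). Its first probe measured 9.81 and 10.29 in the knockouts and 11.23 and 11.31 in the controls. The second probe measured 9.85 and 10.22 in the knockouts and 11.04 and 11.36 in the controls. On both probes the knockout values lay below the control values. The differences were −1.22 (SE 0.23), 2.33-fold lower, on the first probe and −1.17, 2.25-fold lower, on the second, and the first was the 102nd lowest of 9311. Developing red cells also carry this receptor. Of 7 red blood cell markers on the array 4 were tested, and all 4 were higher in knockout, where 50.6% of all rows were. Their summed intensity was 31440 and 32940 in the knockouts and 19310 and 12160 in the controls. Hbb-b2, Epb42 and Rhd were not detected on any array. The part of red cells in the Tfrc difference was not tested.

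Trf, the gene for transferrin, the iron carrier of plasma and the ligand of both transferrin receptors, lies on chromosome 9 (103208876 to 103230286). It measured 15.98 and 16.03 in the knockouts and 15.96 and 16.05 in the controls, a difference of −0.0019 (SE 0.18). The groups overlapped. Its probe ranked between the 1st and the 7th brightest of 25697 on every array, with deposited intensities of 62620 and 68066 units in the knockouts and 60757 and 72709 units in the controls. How far the scanner resolves differences at that brightness was not tested.

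For storage, Fth1 encodes the heavy subunit of ferritin, which oxidises iron as it enters the shell, and lies on chromosome 19 (9980600 to 9985111). Its first probe measured 15.78 and 15.90 in the knockouts and 15.87 and 15.72 in the controls, a difference of 0.04 (SE 0.18). On the second probe the values were 15.69 and 15.75 in the knockouts and 15.68 and 15.66 in the controls, a difference of 0.05. The first difference was smaller than its error, and on the second probe the groups did not overlap but were nearly level. Both probes were near the top of the intensity range, between the 12th and the 41st brightest. Ftl1, for the light subunit, on chromosome 7 (45457944 to 45459886), had 1 probe, which was below background on every array, with deposited intensities of 229 and 224 units in the knockouts and 214 and 234 units in the controls. Its level is not given by these arrays.

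The exporter gene Slc40a1, for ferroportin, lies on chromosome 1 (45908070 to 45926532). It measured 14.24 and 14.08 in the knockouts and 13.49 and 13.78 in the controls. Both knockouts lay above both controls, with means of 14.16 ± 0.11 in the knockouts and 13.63 ± 0.21 in the controls (SD, n = 2 each) and a difference of 0.53 (SE 0.20), 1.44-fold higher. Ferroportin is also made by liver macrophages, and 10 of their 12 tested markers were above 0, where 50.6% of all rows were. The median difference of these markers was 0.79. The macrophage markers summed to 14850 and 13410 in the knockouts, against 10760 and 6086 in the controls, and Cd5l was not detected on any array. The part of the macrophage markers in the Slc40a1 difference was not tested.

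Hamp, the gene for the hormone hepcidin, lies on chromosome 7 (30942368 to 30944029) close to Hamp2, a copy found in mouse. Hamp measured 14.43 and 14.67 in the knockouts and 15.29 and 15.15 in the controls. Both knockouts were below both controls, with means of 14.55 ± 0.17 in the knockouts and 15.22 ± 0.10 in the controls (SD, n = 2 each). The difference was −0.67 (SE 0.19), 1.59-fold lower, the 477th lowest of 9311. The genes most like Hamp over the 4 arrays, by the same measure as for Scara5, were Rnf123 (0.018), Tlcd2 (0.023) and Ube2g2 (0.029).

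Hamp2 had a larger difference than Hamp, with 10.73 and 11.26 in the knockouts and 14.44 and 13.32 in the controls. The difference was −2.88 (SE 0.41), 7.38-fold lower, and it missed the threshold in limma's test over all rows (adjusted p = 0.0644). Among 14 other settings the adjusted p lay between 0.0050 and 0.255, and 5 of them gave a p under the threshold. Whether Hamp2 and Hamp differ in the size of their change was not tested. Because Hamp and Hamp2 are close copies, a probe of either could bind RNA of both, and probe sequences were not used here. The promoters of the pair are shown because both genes were lower in both knockouts, and because the sites through which BMP and STAT3 signals act on hepcidin lie close to its start. Each line gives the 250 bases before the transcription start, from RefSeq, GRCm38.p6, 5′ to 3′ on the minus strand, at chr7:30944030-30944279 for Hamp and chr7:30924182-30924431 for Hamp2. Capitals mark the motifs GGCGCC, a BMP response element, and TTCNNNGAA, a STAT site.
Hamp: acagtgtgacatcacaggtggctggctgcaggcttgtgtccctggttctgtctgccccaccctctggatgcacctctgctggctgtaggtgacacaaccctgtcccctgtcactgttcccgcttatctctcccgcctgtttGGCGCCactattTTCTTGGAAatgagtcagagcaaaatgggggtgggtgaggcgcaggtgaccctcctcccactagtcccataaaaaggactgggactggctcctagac
Hamp2: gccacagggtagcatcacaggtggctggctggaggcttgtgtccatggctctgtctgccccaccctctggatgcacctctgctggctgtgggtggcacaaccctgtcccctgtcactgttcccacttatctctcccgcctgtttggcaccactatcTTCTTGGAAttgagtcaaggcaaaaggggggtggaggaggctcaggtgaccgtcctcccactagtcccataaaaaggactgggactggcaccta
The 2 promoters were identical at 227 of 253 aligned positions, 89.7%. Both held 1 STAT motif, spelled TTCTTGGAA, whose first base lay 97 bases before the start in Hamp and 94 in Hamp2. A BMP motif was found in Hamp, 109 bases before the start, and these letters are not in the window of Hamp2. The motifs do not overlap. Searched on both strands, GGCGCC is present in 9.59% and TTCNNNGAA in 7.02% of the 32851 promoter windows of the same length. A match is a description of letters and not a measured binding site.

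Among the sensors above hepcidin, Hfe, whose product joins transferrin receptors at the cell surface, lies on chromosome 13 (23702034 to 23710854). Its brighter probe measured 10.75 and 10.79 in the knockouts and 10.20 and 10.48 in the controls, a difference of 0.43 (SE 0.19), 1.34-fold higher. The dimmer probe did not show this: it measured 8.29 and 8.98 in the knockouts and 8.32 and 8.81 in the controls, a difference of 0.06 with overlapping groups. The mean of both probes differed by 0.25, and without control replicate 1 the brighter probe differed by 0.28.

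Tfr2, for transferrin receptor 2, which senses iron-loaded transferrin in hepatocytes, lies on chromosome 5 (137569822 to 137588081). It measured 13.08 and 12.81 in the knockouts and 12.41 and 12.79 in the controls, a difference of 0.34 (SE 0.22). The groups were apart by only the gap between 12.81 and 12.79, and the difference was 0.16 without control replicate 1. A second probe overlapped, with 10.47 and 10.37 in the knockouts and 9.91 and 10.38 in the controls, a difference of 0.28. Hfe2, for hemojuvelin, the BMP co-receptor, on chromosome 3 (96525163 to 96529216), was below background on every array with either probe. Deposited intensities of its first probe were 204 and 256 units in the knockouts and 225 and 264 units in the controls.

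Of 26 further genes on the array that control or copy hepcidin, 21 were tested and 0 passed limma's test over all rows. At an unadjusted p under 0.05 there were 5 of 21, 2 higher and 3 lower, with the copy Hamp2 among the lower. The median difference was −0.05. Over all rows 16.5% had an unadjusted p under 0.05, 9.45% higher and 7.07% lower, and the counts of this kind below are to be read against those shares. Apart from Hamp2, the gene with the smallest p was Socs3, a feedback inhibitor of cytokine signalling, at 9.73 and 10.36 in the knockouts and 8.50 and 8.03 in the controls (difference 1.78, SE 0.30, adjusted p = 0.0882). Il6ra, the interleukin-6 receptor gene, measured 7.43 and 8.15 in the knockouts and 9.15 and 8.77 in the controls (difference −1.17, SE 0.30, adjusted p = 0.169). Id1, a target gene of BMP signalling named after its values were seen, measured 7.48 and 7.36 in the knockouts and 8.78 and 8.09 in the controls (difference −1.01, SE 0.27, adjusted p = 0.179). In contrast Id2 and Id3, also BMP targets named after their values were seen, differed by 0.49 (SE 0.28) and 0.43 (SE 0.32), with overlapping groups. Smad6 and Atoh8 of the same list differed by −0.27 and 0.48, with overlapping groups. The remaining gene at an unadjusted p under 0.05 was Fkbp1a (difference 0.56, SE 0.17, adjusted p = 0.219), whose groups did not overlap.

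The signal carriers Smad1, Smad4 and Smad5 differed by 0.13, 0.04 and −0.10, and Tmprss6, a protease that cleaves hemojuvelin, by −0.05. These genes too were named after their values were seen. The ligand genes Bmp2 and Bmp6 were not detected on any array. The acute phase list holds genes listed as targets of interleukin-6 and STAT3 signalling. How far it reports that signalling here was not tested. Of the list 0 of 10 tested genes passed limma's test, and the median difference was 0.03. At an unadjusted p under 0.05, 2 of the genes were higher and 0 lower. Over all rows 9.45% were higher and 7.07% lower, 16.5% in either direction. Of these Orm2 measured 13.03 and 12.05 in the knockouts and 11.58 and 11.33 in the controls (difference 1.09, SE 0.35, adjusted p = 0.235), and differed by 0.60 without knockout replicate 1. Saa2, of serum amyloid A, differed by 0.70 (SE 0.22, adjusted p = 0.226), or by 0.24 with no background correction. Lbp, for an endotoxin-binding protein, differed by −0.27 (SE 0.26, adjusted p = 0.663), or by −0.0079 without knockout replicate 2.

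**Figure D3:**
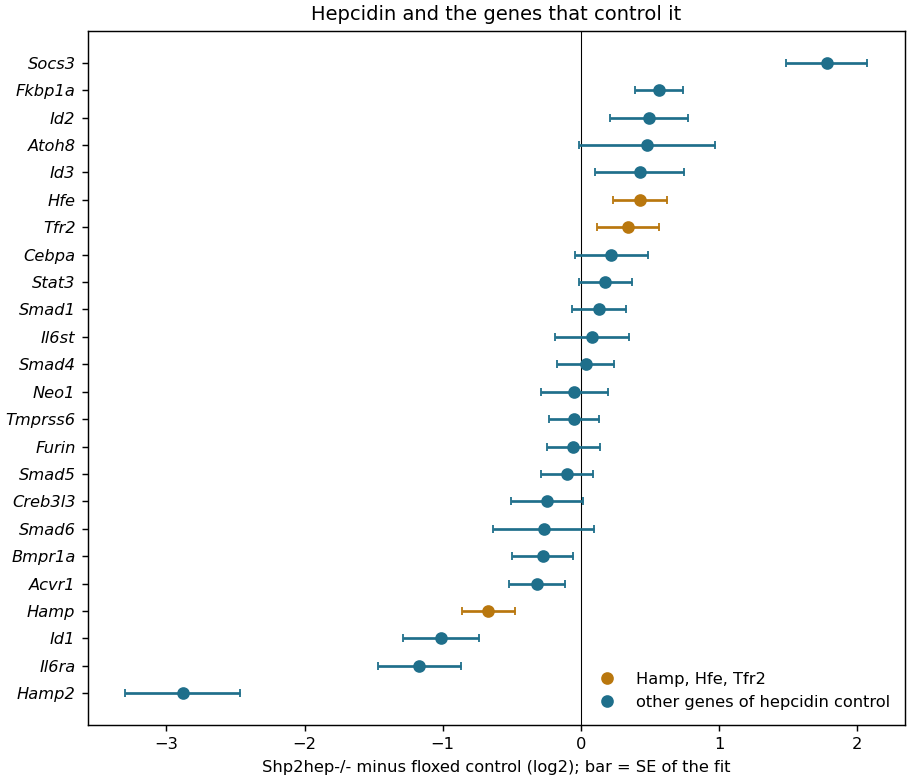
Knockout minus control difference on the log2 scale, with the SE of the fit as bars, for Hamp, Hfe and Tfr2 (orange) and 21 further genes that control or copy hepcidin (blue), ordered by difference. Hamp2 is lowest at −2.88, Hamp is at −0.67 and Socs3 is highest at 1.78.

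Of 18 other genes of iron transport and trafficking 12 were tested and 0 passed limma's test. At an unadjusted p under 0.05 there were 4 of 12, against 16.5% of all rows, with 2 higher and 2 lower. The median difference was −0.33, and 10 of the 12 lay below 0, where 50.6% of all rows were above 0. Steap2, a ferrireductase gene, measured 9.20 and 8.63 in the knockouts and 8.12 and 7.46 in the controls (difference 1.12, SE 0.32, adjusted p = 0.187). Timd2, a receptor gene for heavy ferritin in mouse, differed by 0.55 (SE 0.19, adjusted p = 0.255), with 12.86 and 12.89 in the knockouts and 12.45 and 12.21 in the controls. It thus lay on the other side of 0 from the ferritin receptor gene Scara5. Lcn2, whose product binds iron-carrying siderophores, differed by −0.78 (SE 0.27, adjusted p = 0.254).

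In the iron sensing list 0 of 6 genes passed limma's test, and the median difference was −0.16. Over all rows 9.45% were higher and 7.07% lower at an unadjusted p under 0.05, 16.5% in either direction. In this list 1 gene was lower at that level and 0 were higher. That gene was Epas1, for the oxygen-dependent factor HIF-2 alpha, at 7.48 and 7.99 in the knockouts and 8.87 and 8.34 in the controls (difference −0.87, SE 0.28, adjusted p = 0.233). Fbxl5, for the ligase that removes an iron-regulatory protein when iron is plentiful, differed by 0.35 (SE 0.23), or by 0.10 without control replicate 1. Zfp36, for an RNA decay factor, differed by −0.26 (SE 0.18). The iron-regulatory protein genes Aco1 and Ireb2, named after their values were seen, differed by −0.06 and −0.05. The promoter of Tfrc is shown because that gene was lower with both probes and is a known target of hypoxia-inducible factors. It gives the 250 bases before the start at 32609122, from RefSeq, GRCm38.p6, plus strand, at chr16:32608872-32609121, with the motif TACGTG in capitals. The motif lies 229 to 224 bases before that start. The window runs past another annotated Tfrc start, at 32608896, and the motif spans that position. Most of the printed bases therefore lie inside the gene as annotated.
Tfrc: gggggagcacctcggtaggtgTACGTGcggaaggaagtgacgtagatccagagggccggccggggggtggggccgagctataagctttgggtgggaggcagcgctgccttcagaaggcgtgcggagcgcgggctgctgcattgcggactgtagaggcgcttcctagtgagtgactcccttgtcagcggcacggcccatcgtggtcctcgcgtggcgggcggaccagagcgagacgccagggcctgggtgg
This motif was searched on both strands and is present in 2.72% of the 32851 windows of the same length. Among 10 windows of 6 members in the promoter table it was found in 1, this one, and of the Tfrc windows only the one with the motif is printed. The Tfrc windows overlap, and the other one ends inside these letters, so it could not hold the whole motif. GGCGCC was found in that other window.

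Mitochondrial iron and iron-sulfur cluster genes had small differences, between −0.34 and 0.18. None of 7 tested genes passed limma's test, 0 had an unadjusted p under 0.05 and the median was −0.07. Isca1, for a cluster carrier, differed by −0.34 (SE 0.18), the desulfurase gene Nfs1 by 0.18 (SE 0.18) and Slc25a28, for mitoferrin 2, by −0.16 (SE 0.18). In haem and haemoglobin salvage 0 of 9 passed the test, while 3 were higher and 0 lower at an unadjusted p under 0.05, against 9.45% of all rows higher and 7.07% lower, with a median of 0.16. Hmox1, for the oxygenase that frees iron from haem, measured 8.45 and 8.30 in the knockouts and 7.35 and 7.18 in the controls (difference 1.11, SE 0.19, adjusted p = 0.0894). Flvcr2, a transporter gene, measured 9.21 and 9.36 in the knockouts and 7.70 and 6.66 in the controls (difference 2.11, SE 0.36, adjusted p = 0.0949). Slc48a1, for a haem transporter of the lysosome, differed by 0.74 (SE 0.20, adjusted p = 0.179). Macrophages break down haem, and the sums of their markers and of red blood cell markers given above were higher in the same samples. Cd163, which is in both the macrophage and the haem salvage lists, went the other way. It differed by −0.81 (SE 0.50), with overlapping groups, and was named after its value was seen. The part of these cells was not tested.

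**Figure D4:**
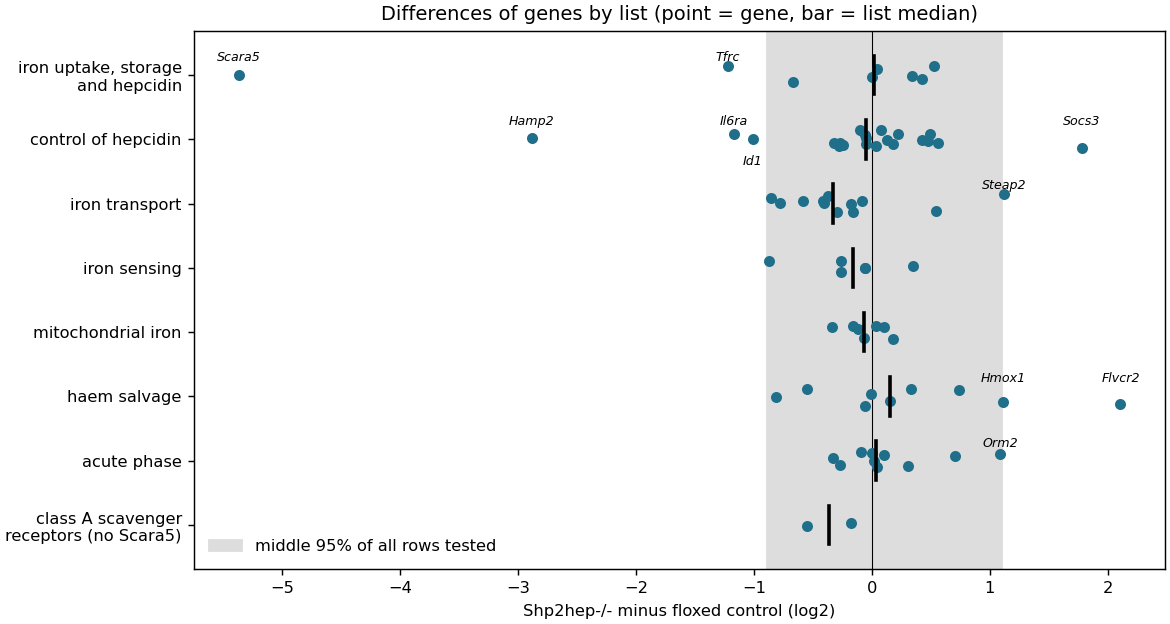
Knockout minus control difference on the log2 scale for each tested gene (points) of the iron genes and of 7 related lists, with list medians as black bars and the middle 95% of all rows, from −0.89 to 1.10, in grey. Genes beyond 1 in either direction are named; Scara5 at −5.37 lies farthest from 0.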

How the data were processed

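The authors deposited a scanner table of mean bead intensity with a detection p-value beside each intensity, per the file headers. Its values were taken as linear with background not subtracted. Every array had a mean of 1186.5, so scaling preceded deposit. A further deposited table of processed intensity, with its making not given in the sources used here, served as an alternative. Its ranking of probes on each array had a Spearman correlation with the scanner table that rounds to 1. On each array 25.3% to 25.4% of its values were below 0, and medians were 31.58 to 31.63. The 4 rows with no probe identifier were left out of 25701. Intensities were processed with neqc of limma 3.58.1 (R 4.3.3; offset 16, quantile normalization, log2). Probes detected on at least 2 arrays entered the test (12197), with each gene as its brightest passing probe, giving 8579 genes and 732 probes without a symbol. Knockout and control were compared with lmFit and eBayes, two-sided, Benjamini-Hochberg adjusted over 9311 rows, on 2 residual and 3.375 prior degrees of freedom. SE is the model's. Symbols came from the platform annotation (23978 probes with 1 symbol, 0 with several, 1719 with none). Single probes that do not represent a gene have no SE. Promoters were aligned with Biopython 1.88.

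Members, gene lists and tests were chosen with earlier results of these data known. Named genes are all members, Ptpn11, up to 3 genes of each list with the smallest p, and the 3 most like Scara5 and Hamp. Others were named after their values or detection were seen, and not all of these are marked. The number of arrays limits the precision.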

Additional observations from a re-analysis of the deposited data

How the results depend on the processing

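The fit called 74 rows changed. It called 247 with normexp and an offset of 50, 321 with no background correction, 367 with a variance trend and robust eBayes, 46 with every probe on its own, 41 with detection on at least 1 array and 15 from the deposited processed values. Leaving out an array gave 0 to 27, with 0 without either knockout (limma; 1179 and 1511 rows at an unadjusted p under 0.05); the lone sample is then assumed to vary like the other group. The difference of Scara5 was −5.37; it was −3.98 with normexp and an offset of 50, −3.15 with no background correction and −6.16 from the deposited processed values, and −5.81 to −4.93 with an array left out. It had no value with detection required on all 4 arrays. With an array left out, differences ran from −1.46 to −0.98 for Tfrc, −0.79 to −0.55 for Hamp, 0.38 to 0.67 for Slc40a1, 0.28 to 0.57 for Hfe and 0.16 to 0.53 for Tfr2; those of Trf and Fth1 lay on both sides of 0. With no background correction the differences shrank to 0.68 for Steap2, −0.71 for Il6ra, −0.51 for Epas1, 0.58 for Hmox1, 1.22 for Flvcr2 and −0.17 for Scara3. Without control replicate 1 that of Nfs1 was 0.097, and with the mean of its probes 0.40; that of Slc25a28 was −0.096 without quantile normalization. Fbxl5 ran from 0.10 to 0.60, Lbp from −0.53 to −0.0079, Scara3 from −1.80 to 0.71 and Marco from −0.91 to 0.55 with an array left out. Socs3, Hmox1 and Flvcr2 passed the threshold under 3, 3 and 4 of 14 alternatives. The causes were not tested. No paired analysis was possible because the labels number the knockouts only. Signal over background limits Ftl1 and Hfe2, which were below background, and the knockout level of Scara5.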
